A study of Mus musculus with 4 samples.

Results

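The genes of cholesterol and fatty acid synthesis were followed through 4 RNA-seq libraries of mouse lung. They were chosen by gene name from a list of enzymes and sterol regulators, 32 genes of the 21931 in the expression table. These were 17 cholesterol synthesis enzymes, 5 sterol regulators and 10 fatty acid synthesis enzymes. The list was drawn up with earlier results of these data known, so counts over it are descriptions and not tests. All 32 had enough reads to be tested, among 15055 tested genes. The lungs came from C57BL6 mice 2 months of age with no added treatment, and RNA was taken from fresh tissue. The groups were the wild type (1 library), the knockout of Dnah9, which encodes a motor subunit of cilia that beat (2 libraries), and a genotype labelled Hez (1 library), an abbreviation that the labels do not spell out. The labels do not name the deleted part of Dnah9, the sex of the mice or whether each library came from its own animal, so the spread between the knockout libraries may be technical.

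Cholesterol is built in the endoplasmic reticulum from acetyl-CoA through mevalonate, squalene and lanosterol. Fatty acids are built in the cytosol from the same precursor through malonyl-CoA, and are then elongated and desaturated. Transcription of both arms is driven by the SREBP factors, which are held in the endoplasmic reticulum by Scap and Insig proteins when sterols are plentiful and are released when they are scarce. In lung, alveolar type 2 cells use both arms to make the lipids of surfactant.

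Total read counts ran from 15860478 to 16553480 per library, and the 32 genes took 0.749% to 0.815% of the reads. Dnah9 itself had 917 reads in the wild type, 420 in Hez, and 240 and 254 in the knockouts, so the targeted transcript was lower in the libraries labelled knockout but still detected. The defining lung epithelial marker Sftpc, a surfactant protein of alveolar type 2 cells, stood at 12164 CPM (read counts scaled to a common library total) in the wild type and at 12682 to 13872 in the other libraries. Tests compared the 2 knockout libraries with 1 wild-type or 1 Hez library. The spread in these tests came from the knockout pair, moderated over all genes, and the single libraries were assumed to vary alike.

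Most cholesterol synthesis enzymes stood slightly higher in the knockout lungs than in the wild type, without a single one passing the test across all genes. Of the 17 enzymes, 15 lay above the wild-type library in both knockout libraries and 0 lay below it in both. Among all tested genes 33% lay above in both and 33.4% below in both. Taken singly, each knockout library lay above the wild type for 16 of the 17. The median log2 fold of the 17 enzymes was 0.28, against 0.00 over all tested genes, and 16 of 17 folds were above 0, where 51.1% of all genes had a fold above 0. In 15 of the 17 the knockout mean exceeded the wild type by more than the gap between the knockout libraries, as it did in 22.6% of all genes. Of the sterol enzymes 0 had an adjusted p below 0.05 by edgeR's quasi-likelihood test, in which 8 genes, or 0.0531% of those tested, were called. At an unadjusted p below 0.05 there were 7 sterol enzymes higher and 0 lower, where 1.81% of all genes were higher and 3.37% lower at that level. limma-voom also called 0 of the 32 genes against the wild type, as did DESeq2, which gave an adjusted p for 29 of them. Hez differed from the wild type in both directions over the same 17 enzymes, from -0.27 (Fdps) to 0.36 (Dhcr7), with a median of 0.05 (log2 CPM, no test with 1 library each). In Hez 11 of 17 were above the wild type, as were 49.5% of all genes.

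**Figure D1:**
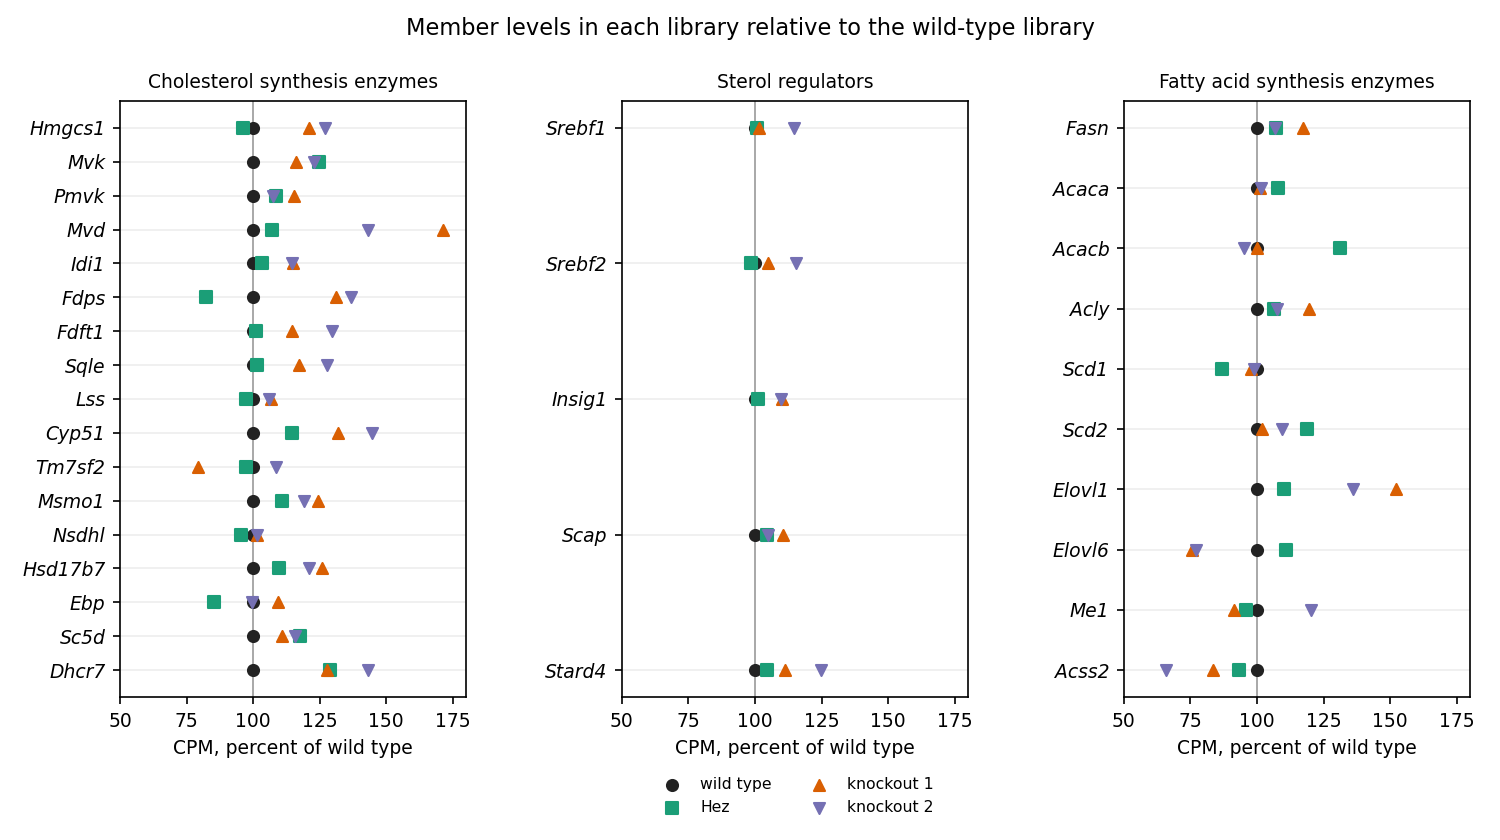
Level of each gene in each library as a percent of its CPM in the wild-type library (x axis), with genes on the y axis in 3 panels, 1 per gene group; each symbol is 1 library and there are no error bars. Knockout triangles lie to the right of the wild-type circle for 15 of 17 cholesterol synthesis enzymes and 5 of 5 sterol regulators, and on both sides of it for fatty acid synthesis enzymes.

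Of the early, mevalonate-forming steps, Hmgcs1 (HMG-CoA synthase, which commits acetyl units to the pathway; ENSMUSG00000093930, GRCm39 chromosome 13, 120151915 to 120169796) stood at 99.3 CPM in the wild type, 95.6 in Hez, and 120.0 and 126 in knockouts 1 and 2. Both knockouts lay above both other libraries, and these did not overlap. All folds are on the log2 scale. The fold of Hmgcs1 against the wild type was 0.31, with an SE of 0.103 (edgeR adjusted p = 0.769), and against Hez it was 0.36 (SE 0.103, edgeR adjusted p = 0.815). Mvd (mevalonate diphosphate decarboxylase, which makes the isoprene unit; ENSMUSG00000006517, chromosome 8, 123160340 to 123170161) had the largest fold of the sterol enzymes against the wild type. It stood at 13.6 CPM in the wild type and 14.6 in Hez, and at 23.4 and 19.5 in the knockouts, again without overlap. Its fold was 0.65 (SE 0.201, edgeR adjusted p = 0.677) against the wild type and 0.56 (SE 0.199, edgeR adjusted p = 0.97) against Hez. The knockouts differed from each other by 0.26 for Mvd. The annotation puts Galnt2l over the whole of Mvd on the opposite strand, with 0 reads in every library.

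The mevalonate kinases did not separate the groups in this way. Mvk, the first of them, stood at 20.3 CPM in the wild type, 23.6 and 24.9 in the knockouts and 25.3 in Hez, so that Hez was the highest library and the wild type the lowest. Pmvk, the second kinase, stood at 25.5 in the wild type, 27.8 in Hez and 29.4 and 27.5 in the knockouts. Idi1, the isomerase that makes dimethylallyl diphosphate, stood at 39.5 in the wild type and 40.8 in Hez against 45.4 and 45.2 in the knockouts, a fold of 0.20 against the wild type. Fdps, farnesyl diphosphate synthase, was the least abundant of the 32 genes, with 44 reads in the wild type, 37 in Hez, and 58 and 59 in the knockouts. Its fold of 0.42 had an SE of 0.413, so the difference was not detectable at this depth. The mouse genome holds near-identical processed copies of Fdps, and the handling of reads that match several places is not stated, so its level is uncertain.

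At the squalene steps the knockouts again lay above both references. Sqle, squalene epoxidase, stood at 61.3 CPM in the wild type, 62.3 in Hez, and 71.8 and 78.3 in the knockouts. Fdft1, squalene synthase, stood at 49.4, 49.9, 56.7 and 64.0 in the same order. For both genes the wild type and Hez were nearly level and both knockouts lay above them, with folds against the wild type of 0.29 (SE 0.109) for Sqle and 0.29 (SE 0.121) for Fdft1 and edgeR adjusted p = 0.856 and 0.947. Fdft1 overlaps Ctsb on the opposite strand by 774 bases, and Ctsb had 9065 to 9631 reads against 801 to 1018 for Fdft1. No strand setting is stated, so reads in the overlap may not be separated. Lss, which closes the lanosterol ring, differed little, at 42.3 in the wild type, 41.2 in Hez, and 45.1 and 44.9 in the knockouts.

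Cyp51 (lanosterol demethylase; ENSMUSG00000001467, chromosome 5, 4131145 to 4154746) had the smallest p of the sterol enzymes against the wild type. It stood at 40.7 CPM in the wild type, 46.6 in Hez, and 53.7 and 58.9 in the knockouts. Hez lay between the wild type and the knockouts here. The fold was 0.47 against the wild type (SE 0.121, edgeR adjusted p = 0.532) and 0.27 against Hez (SE 0.119, edgeR adjusted p = 0.9997). The 4-methyl sterol oxidase Msmo1 showed the same order, at 63.7 in the wild type, 70.7 in Hez, and 79.2 and 75.9 in the knockouts, as did the 3-keto reductase Hsd17b7, at 21.0, 23.0, 26.4 and 25.4. Nsdhl, the C4 decarboxylating dehydrogenase between those steps, was nearly level, at 33.8 in the wild type, 32.2 in Hez and 34.3 in each knockout. Cyp51 overlaps Akap9 on the opposite strand by 166 bases, and Akap9 had 1802 to 1896 reads against 660 to 937 for Cyp51.

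In the last steps, Dhcr7, the reductase that makes cholesterol from its immediate precursor, stood at 19.1 CPM in the wild type, 24.6 in Hez, and 24.4 and 27.4 in the knockouts. The wild-type library was the low one for Dhcr7, with a fold of 0.44 against it (SE 0.169, edgeR adjusted p = 0.885) and of 0.07 against Hez. In Sc5d, the sterol desaturase, the wild type was likewise lowest and Hez was highest, at 75.7 in the wild type, 88.9 in Hez, and 83.8 and 87.5 in the knockouts. Ebp, the sterol isomerase, was lowest in Hez at 36.2, with 42.5 in the wild type and 46.3 and 42.3 in the knockouts; its fold against the wild type was 0.06, and -0.01 without knockout 1. Tm7sf2, a sterol C14 reductase, was the single sterol enzyme with a fold below 0 (-0.09, SE 0.259, and 0.12 without knockout 1), since its knockouts spread widely, at 9.16 and 12.5 around 11.5 in the wild type and 11.3 in Hez. Tm7sf2 also overlaps its neighbour Vps51 on the same strand by 532 bases in the table.

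Taking wild type and Hez as separate references, both knockouts lay above both of them for 11 of the 17 sterol enzymes and below both for 0. Over all tested genes 17.5% lay above both and 16.3% below both. Against Hez alone 12 of 17 lay above in both knockouts (34.2% of all genes), and 14 of 17 folds were above 0 (52.5% of all genes). The median fold of the 17 against Hez was 0.15 (all tested genes 0.01). In that comparison edgeR called 0 of the 32, where 0.00664% of all genes were called, with 3 sterol enzymes higher and 0 lower at an unadjusted p below 0.05, where 2.5% of all genes were higher; DESeq2 and limma-voom called 0 of the 32. Joining the wild type and Hez assumes that they share a mean. Hez minus wild type ran from -0.27 to 0.36 over the 17 enzymes, and it was -1.15 for Dnah9. With the wild type and Hez as 1 group of 2 libraries the median was 0.21, and edgeR again called 0 of the 17, where 0.0133% of all genes were called. In it 16 of 17 folds were above 0 (50.3% of all genes), and 6 were higher at an unadjusted p below 0.05, where 2.44% of all genes were. DESeq2 called 0 of the 14 with an adjusted p, and limma-voom called 0 of the 17. That median was 0.15 without the wild-type library and 0.28 without the Hez library. These comparisons share the knockout libraries and are not separate evidence.

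**Figure D2:**
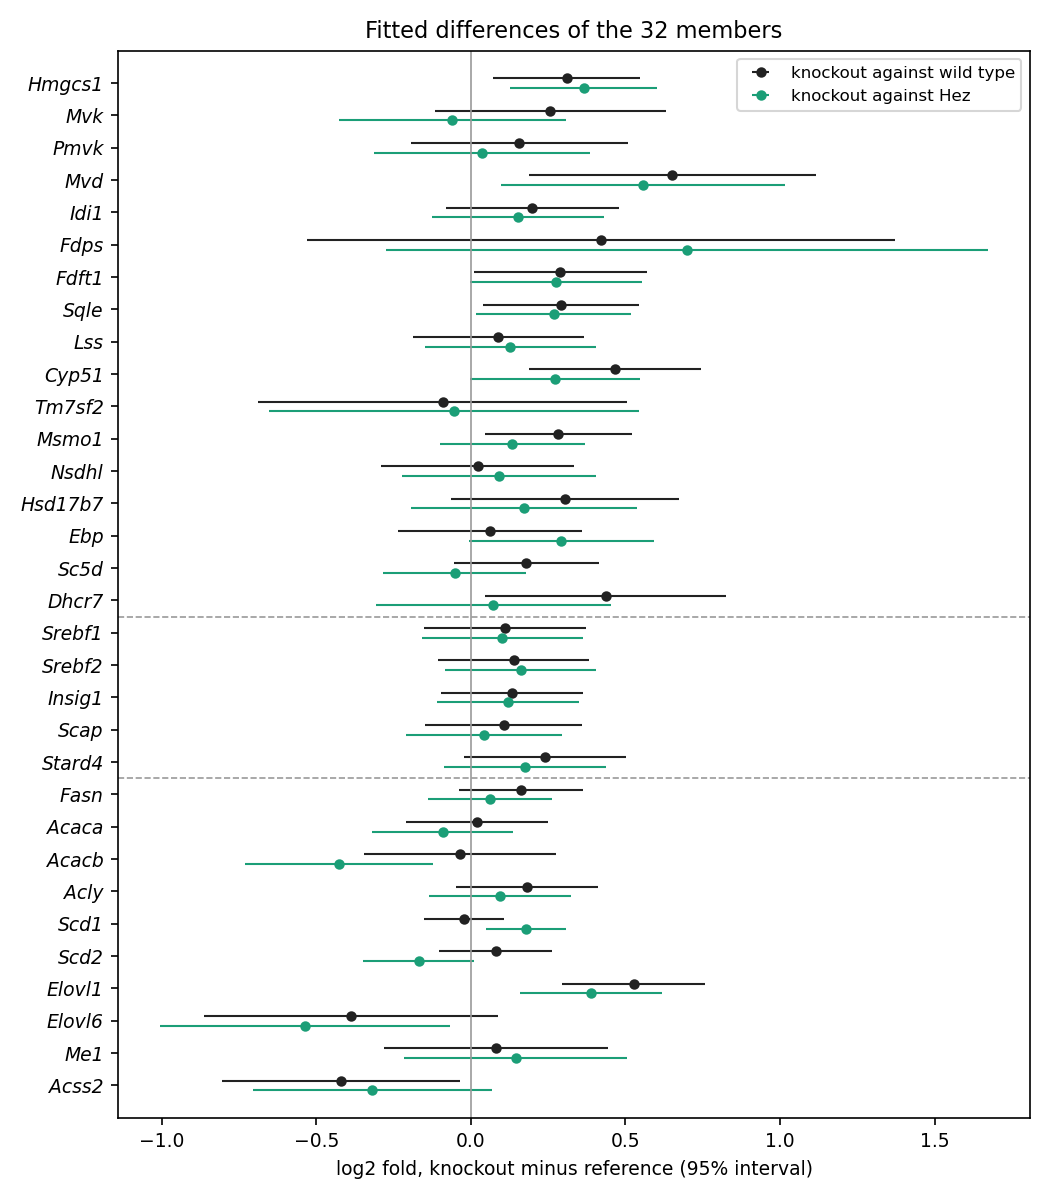
Fitted log2 fold of the knockout libraries against the wild type (black) and against Hez (green) on the x axis for each of the 32 genes on the y axis; points are edgeR estimates, bars are 95% intervals of single genes, not adjusted for the number of genes, and dashed lines part the sterol enzymes, sterol regulators and fatty acid enzymes. Intervals against both references lie above 0 for Hmgcs1, Mvd, Sqle and Elovl1, while every other gene has at least 1 interval that includes 0.

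Promoters of 6 genes with different patterns are shown because SREBP factors act together with NF-Y, which binds CCAAT boxes, and with Sp1. RefSeq promoters (build GRCm38.p6, matched by symbol) were at hand for 26 of the 32 genes. The rest were Fdps, Fdft1, Sqle, Stard4, Scd1 and Scd2. The 250 bases before each start were searched on both strands for the CCAAT box (CCAAT), for the sterol regulatory element TCACNCCAC, for the Sp1 box GGGCGG and for the E-box CACGTG. At 1 or more starts a CCAAT box was found for 14 of 14 sterol enzymes, 3 of 4 sterol regulators and 5 of 8 fatty acid enzymes, against 39.7% of the tested genes in the promoter table and 33.8% of all promoters in it. GGGCGG was found for 13 of 14, 4 of 4 and 4 of 8, against 60% of tested genes and 32.7% of all promoters, and CACGTG for 3 of 14, 2 of 4 and 0 of 8, against 9.22% and 6.02%. The exact element TCACNCCAC was found in the promoter of Hmgcs1 alone among the 26 genes, and in 1.24% of tested genes and 1.05% of all promoters. The windows of 6 genes follow, 5′ to 3′ along the gene, ending at the base before the start. Capitals mark the CCAAT box on either strand and, in Hmgcs1, the sterol element. Hmgcs1 and Mvd lay above both references in the knockouts, Mvk did not, Cyp51 had the smallest p of the sterol enzymes against the wild type, and Elovl1 and Elovl6 are fatty acid genes whose knockout libraries lay above and below both references.
Hmgcs1 (chr13:119690101-119690350, plus strand): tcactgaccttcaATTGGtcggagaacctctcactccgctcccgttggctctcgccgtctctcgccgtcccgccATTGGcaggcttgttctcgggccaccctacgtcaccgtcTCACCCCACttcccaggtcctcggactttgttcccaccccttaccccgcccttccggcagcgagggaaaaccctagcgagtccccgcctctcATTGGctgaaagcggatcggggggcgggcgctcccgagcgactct
Mvd (chr8:122443423-122443672, minus strand): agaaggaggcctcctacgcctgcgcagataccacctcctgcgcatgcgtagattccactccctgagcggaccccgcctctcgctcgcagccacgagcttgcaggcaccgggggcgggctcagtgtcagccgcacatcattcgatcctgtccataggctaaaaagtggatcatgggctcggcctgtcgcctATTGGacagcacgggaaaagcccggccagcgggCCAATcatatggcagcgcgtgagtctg
Mvk (chr5:114444019-114444268, plus strand): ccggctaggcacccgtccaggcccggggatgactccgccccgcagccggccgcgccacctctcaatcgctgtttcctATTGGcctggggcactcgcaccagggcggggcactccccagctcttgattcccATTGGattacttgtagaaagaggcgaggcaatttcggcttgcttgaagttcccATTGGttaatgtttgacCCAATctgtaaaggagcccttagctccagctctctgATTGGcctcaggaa
Cyp51 (chr5:4104698-4104947, minus strand): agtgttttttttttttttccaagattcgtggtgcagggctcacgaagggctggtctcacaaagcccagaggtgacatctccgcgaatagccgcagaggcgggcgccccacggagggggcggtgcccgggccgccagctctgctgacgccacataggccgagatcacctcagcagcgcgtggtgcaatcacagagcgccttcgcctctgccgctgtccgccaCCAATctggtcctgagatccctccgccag
Elovl1 (chr4:118427843-118428092, plus strand): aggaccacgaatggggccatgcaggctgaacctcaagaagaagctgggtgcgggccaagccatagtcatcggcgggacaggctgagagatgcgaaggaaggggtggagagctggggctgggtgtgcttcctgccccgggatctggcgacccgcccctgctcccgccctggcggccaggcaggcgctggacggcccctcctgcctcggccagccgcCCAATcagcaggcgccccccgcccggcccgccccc
Elovl6 (chr3:129532136-129532385, plus strand): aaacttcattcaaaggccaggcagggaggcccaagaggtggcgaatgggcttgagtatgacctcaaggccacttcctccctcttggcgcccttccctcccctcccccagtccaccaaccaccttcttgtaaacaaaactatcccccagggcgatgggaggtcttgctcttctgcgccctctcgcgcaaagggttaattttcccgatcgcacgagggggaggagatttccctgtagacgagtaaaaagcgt

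In these windows Hmgcs1 held 3 CCAAT boxes besides the sterol element, Mvk held 5, Mvd held 2, and Cyp51 and Elovl1 held 1 each. In Elovl1 it overlaps an Sp1 box. In Dhcr7 the boxes lie at the last of its 3 listed starts. The Elovl6 window held none of the 4 motifs searched. Mvk, with the most CCAAT boxes, was among the enzymes whose knockout libraries did not lie above Hez, so the number of boxes did not follow the folds in these examples. A match is a description of letters and not evidence of binding. Only these exact letters were searched, so the lack of a match does not show that an element is absent.

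The sterol regulators differed less than the enzymes, and in the same direction for all 5. Both knockouts lay above both reference libraries in 5 of 5, where 17.5% of all genes did. edgeR, DESeq2 and limma-voom called 0 of the 5 in any comparison. At an unadjusted edgeR p below 0.05 there were 0 against the wild type and 0 against Hez. With the wild type and Hez as 1 group 1 was higher, Stard4 (fold 0.21), where 2.44% of all genes were. The median fold of the 5 was 0.13 against the wild type and 0.12 against Hez, and Hez differed from the wild type by a median of 0.02. Srebf2, the SREBP that mainly drives sterol synthesis, stood at 186 CPM in the wild type, 183 in Hez, and 195 and 215 in the knockouts (fold 0.14, SE 0.106, edgeR adjusted p = 0.996). Srebf1, which mainly drives fatty acid synthesis, stood at 109.96 in the wild type, 110.7 in Hez, and 112 and 126 in the knockouts. Knockout 2 was thus the high library for both SREBP genes, and knockout 1 lay close to the wild type for Srebf1.

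Insig1, which retains the SREBP complex and is itself a target of it, stood at 107 CPM in the wild type, 108.5 in Hez, and 118 in each knockout (fold 0.13, SE 0.0997). Stard4, a carrier that moves sterol between membranes, stood at 62.7 in the wild type, 65.5 in Hez, and 69.8 and 78.3 in the knockouts (fold 0.24, SE 0.114). Scap, the escort protein of the SREBPs, stood at 51.6 in the wild type, 54.0 in Hez, and 57.0 and 54.1 in the knockouts, so that knockout 2 and Hez were level. Without knockout 1 the median fold of the 5 regulators against the wild type was 0.19, and without knockout 2 it was 0.14.

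The fatty acid synthesis enzymes showed no common direction. Against the wild type 6 of 10 folds were above 0 and 4 below, with a median of 0.05; against Hez 5 were above and 5 below, with a median of -0.02. The median against the wild type was 0.058 without knockout 1 and 0.0074 without knockout 2, and against Hez it was -0.053 and -0.081. Both knockouts lay above both references for 2 genes (Elovl1 and Acly) and below both for 3 (Acacb, Elovl6 and Acss2), where 17.5% of all genes lay above both and 16.3% below both. edgeR called 0 of the 10 in any comparison, with 1 higher and 1 lower at an unadjusted p below 0.05 against the wild type, where 1.81% of all genes were higher and 3.37% lower. There were 2 higher and 2 lower against Hez, where 2.5% of all genes were higher and 2.11% lower. With the wild type and Hez as 1 group 1 was higher and 2 were lower, where 2.44% of all genes were higher and 2.63% lower. In that last comparison the median was 0.02, and it turned to -0.07 without knockout 2 and to -0.02 without the wild-type library, so its sign rested on single libraries. DESeq2 called 1 of the 9 with an adjusted p, Elovl1, higher in it, where it called 12 of all 8634 such genes higher. limma-voom called 0 of the 10.

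Elovl1 (an elongase of saturated very long-chain fatty acids; ENSMUSG00000006390, chromosome 4, 118285290 to 118290150) had the smallest p of all 32 genes. It stood at 333 CPM in the wild type, 366 in Hez, and 506 and 453 in the knockouts. The knockouts lay clear of both references, and the gap between them was smaller than their distance from the wild type. The fold was 0.53 against the wild type (SE 0.1005, 95% interval 0.30 to 0.76, edgeR adjusted p = 0.323), which placed it at rank 35 by p among all tested genes, and 0.39 against Hez (SE 0.0998, edgeR adjusted p = 0.72). Against the wild type and Hez together it was 0.46 (edgeR adjusted p = 0.433), and in that comparison the DESeq2 adjusted p was 0.00262 (0.0887 to 0.775 with the other tools, scalings and filters and without each library). Elovl1 overlaps Cdc20 on the other strand by 53 bases, and Cdc20 had 85 to 136 reads against 5393 to 8232 for Elovl1.

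Elovl6, the elongase that takes palmitate to stearate, lay on the other side. It stood at 13.8 CPM in the wild type and 15.2 in Hez against 10.4 and 10.6 in the knockouts (fold -0.39 against the wild type, SE 0.206, edgeR adjusted p = 0.996; -0.54 against Hez, SE 0.204). Acss2, the cytosolic acetyl-CoA synthetase that turns acetate into acetyl-CoA, stood at 39.9 in the wild type, 37.1 in Hez, and 33.3 and 26.3 in the knockouts. Its fold against the wild type was -0.42 (SE 0.167, 95% interval -0.81 to -0.04, edgeR adjusted p = 0.896), and the knockouts differed from each other by 0.34. Gss lies over Acss2 on the opposite strand for 22544 bases, and since no strand setting is stated, reads of the pair may not be separated; Gss had 279 to 345 reads. Acacb, the acetyl-CoA carboxylase that acts at mitochondria and restrains fatty acid oxidation, was level in the wild type and knockouts (33.45 in the wild type, 33.44 and 31.8 in the knockouts) and higher in Hez, at 43.9. Its fold was -0.04 against the wild type and -0.43 against Hez (SE 0.132, edgeR adjusted p = 0.892).

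The enzymes of the main line to palmitate and oleate varied little. Acly, which makes cytosolic acetyl-CoA from citrate, stood at 333 CPM in the wild type, 354 in Hez, and 398 and 357 in the knockouts. Acaca, the cytosolic carboxylase that makes malonyl-CoA, stood at 125, 135, 126 and 127 in the same order. Fasn, fatty acid synthase, stood at 713, 765, 835 and 761 in that order, with the wild type lowest and knockout 1 highest. The fold of Fasn against the wild type was 0.16 (95% interval -0.04 to 0.36), and that of Acaca was 0.02 (-0.21 to 0.25). Me1, which supplies NADPH, was split between the knockouts, at 109 and 143 around 119 in the wild type and 114 in Hez; its fold of 0.08 turned to -0.13 without knockout 2.

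The stearoyl-CoA desaturases were the most abundant members. Scd1 stood at 3884 CPM in the wild type, 3376 in Hez, and 3802 and 3840 in the knockouts, so Hez was the low library. Its fold was -0.02 against the wild type (95% interval -0.15 to 0.11) and 0.18 against Hez (0.05 to 0.31, edgeR adjusted p = 0.892). Scd2 stood at 905 in the wild type, 1076 in Hez, and 923 and 989.9 in the knockouts, and here Hez was the high library. Scd1 and Scd2 are close paralogs side by side on chromosome 19, and the handling of reads that match both is not stated. Scd1 alone made up 53.8% to 59.8% of the summed CPM of the 10 fatty acid enzymes, so that sum says little of the rest.

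**Figure D3:**
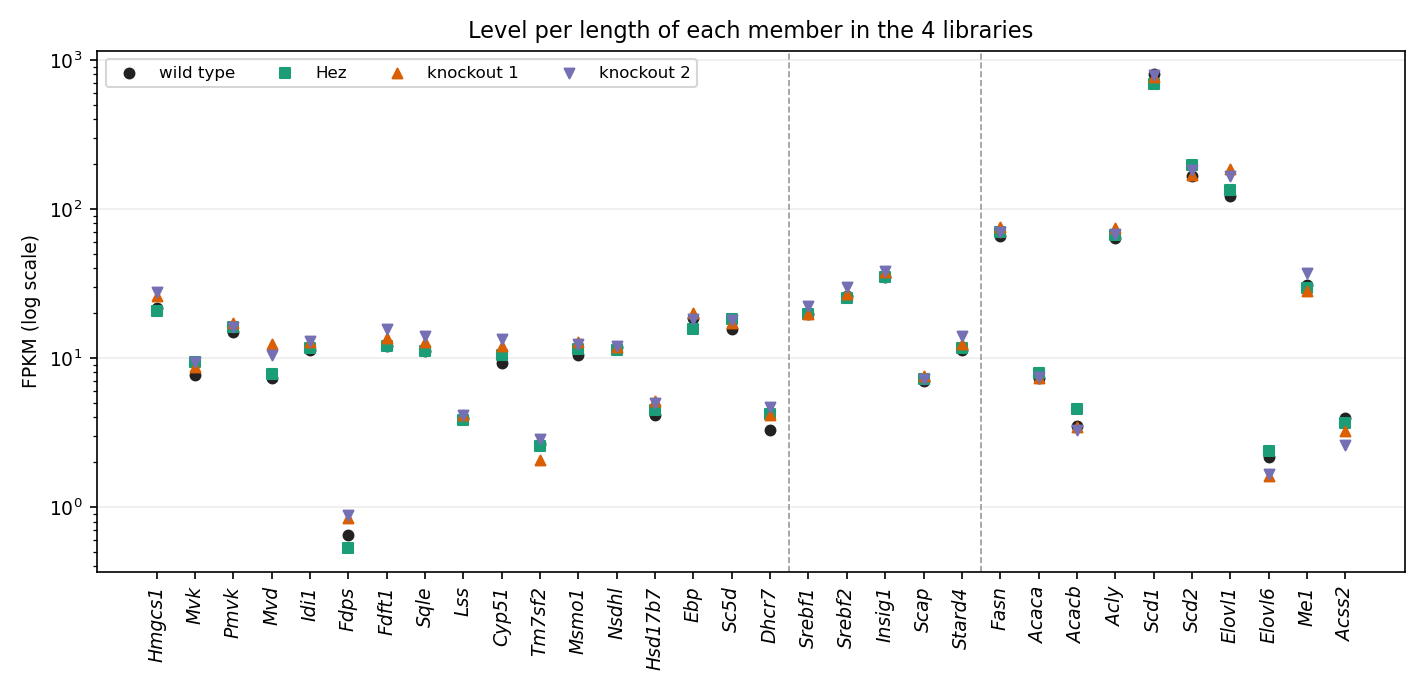
FPKM (read counts scaled by gene length and library total, as deposited, log scale on the y axis) of each of the 32 genes on the x axis, with 1 symbol per library and dashed lines between the 3 gene groups. Levels per length differ far more between genes, from a mean of 0.726 for Fdps to 762 for Scd1, than between libraries.

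Per gene length, the fatty acid enzymes spanned the widest range of levels. Mean FPKM over the 4 libraries was 762 for Scd1, 178 for Scd2, 152 for Elovl1, 70.2 for Fasn and 68.2 for Acly, and it was 3.70 for Acacb, 3.36 for Acss2 and 1.95 for Elovl6. Fasn lay slightly above Acly in each library, though their ranges over the libraries overlapped, at 65.5 to 75.8 and 63.4 to 74.8. Among the sterol enzymes Hmgcs1 was the most abundant per length at 24.0, followed by Ebp at 18.1, Sc5d at 17.3 and Pmvk at 16.1, whose ranges over the libraries overlapped. Another 6 enzymes lay close together, with Fdft1 at 13.4, Sqle at 12.3, Idi1 at 12.2, Nsdhl at 11.8, Msmo1 at 11.8 and Cyp51 at 11.3. Below these were Lss at 4.02, Dhcr7 at 4.10, Hsd17b7 at 4.69, Tm7sf2 at 2.53 and Fdps at 0.726. Of the regulators Insig1 stood at 36.5, Srebf2 at 27.1, Srebf1 at 20.3, Stard4 at 12.4 and Scap at 7.28.

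Genes around these arms were read from further lists. Of 20 genes of sterol handling (esterification, export, sterol sensing and SREBP processing) edgeR called 0 against the wild type. At an unadjusted p below 0.05 there was 1 higher and 0 lower, where 1.81% of all genes were higher and 3.37% lower. The median fold of the 20 was 0.08. The 3 with the smallest p were Soat1, which esterifies cholesterol (0.23, SE 0.0962, edgeR adjusted p = 0.947), Ch25h, a cholesterol hydroxylase (0.62, SE 0.491), and the exporter Abcg1 (0.17, SE 0.133). Of 28 further genes of fatty acid and glycerolipid metabolism 27 were tested and 0 were called, with a median fold of -0.01. Where 1.81% of all genes were higher and 3.37% lower at an unadjusted p below 0.05, 2 of the 27 were higher and 1 was lower. These were Lpcat1, which makes the dipalmitoyl lipid of surfactant (496 CPM in the wild type, 538 in Hez, 609.9 and 576 in the knockouts; fold 0.26, SE 0.0854, edgeR adjusted p = 0.765), and the acyl-CoA synthetases Acsl4 (0.25, SE 0.103) and Acsl1 (-0.30, SE 0.109). DESeq2 and limma-voom called 0 genes of either list against the wild type. DESeq2 gave an adjusted p for 19 of the 20 and for 23 of the 27.

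Markers of cell types that make or store lipid were read in the same libraries. In bulk tissue, fewer cells of a type and less RNA per cell cannot be told apart. Alveolar type 2 markers were higher in both knockouts than in both references for 10 of 10 genes, where 17.5% of all genes were. Against the wild type edgeR, DESeq2 and limma-voom called 0 of them, and the median fold was 0.27. Of the 10, 9 were higher at an unadjusted edgeR p below 0.05, where 1.81% of all genes were. Against the wild type and Hez together DESeq2 called 2 of the 10 higher, where it called 12 of all 8634 genes with an adjusted p higher. In that comparison edgeR and limma-voom called 0 of the 10. The summed level of the 10 was 24277 CPM in the wild type, 24817 in Hez, and 28731 and 27662 in the knockouts. The knockout sums were 118% and 114% of the wild type. The summed level of the cholesterol synthesis enzymes was 662 CPM in the wild type, 693 in Hez, and 776 and 799 in the knockouts, or 117% and 121%, so both sums were highest in the knockout libraries. Alveolar macrophage markers, of cells that take up surfactant lipid, were also higher in both knockouts than in both references for 7 of 8 genes, where 17.5% of all genes were. Against the wild type edgeR and limma-voom called 0 of the 8, and DESeq2 called 0 of the 4 with an adjusted p. Of the 8, 2 were higher at an unadjusted edgeR p below 0.05, where 1.81% of all genes were. The sums of the 8 were 782, 764, 1021 and 1340 CPM in the wild type, Hez and knockouts 1 and 2. Their leading gene Chil3, which made up most of each sum, stood at 509, 524, 712 and 1018.

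Adipocyte markers went the other way. Both knockouts lay below both references for 7 of 10 genes, where 16.3% of all genes lay below both, and the median fold against the wild type was -0.91. In that comparison 1 gene (Cfd, named after its values were seen) was called lower by edgeR, where 0.0399% of all genes were called lower. DESeq2 called 2 lower of the 4 with an adjusted p, where it called 13 of all 8925 such genes lower. limma-voom called 1 of the 10 lower, where it called 7 of all 15055. The summed level was 289 CPM in the wild type, 310 in Hez, and 207 and 151 in the knockouts. Adipoq, the defining fat cell hormone, stood at 12.8, 13.4, 6.15 and 5.16 in that order, and 0 of the 10 markers were at 0 reads in all libraries. Among the fatty acid genes, both knockouts lay below both references for Elovl6, Acss2 and Acacb. These 3 are named for that position, so sharing their lowest libraries with the adipocyte markers follows from the choice. Acacb hardly differed between knockout 1 and the wild type, and the other fatty acid genes did not lie below both references. Club cell markers, with sums of 21916, 17019, 18335 and 15335 CPM in the wild type, Hez and knockouts 1 and 2, and multiciliated markers, with sums of 2069.9, 1799, 1735 and 1765, set the wild type apart from the other 3 libraries. Most of the club sums came from Scgb1a1. Sec14l3, named after its values were seen, made up most of the multiciliated sums, at 1658, 1534, 1449 and 1477 CPM in that order. The median fold of the 8 multiciliated markers against the wild type was -0.49, and edgeR called 0 of them. At an unadjusted edgeR p below 0.05, 7 of the 8 were lower, where 3.37% of all genes were. Of the 8 club markers edgeR called 3 lower against the wild type, where 0.0399% of all genes were called lower. DESeq2 and limma-voom called 4 each, where they called 13 of 8925 and 7 of 15055 genes lower. The first markers were Scgb1a1, at 16729 CPM in the wild type, 13356 in Hez, and 14770 and 12084 in the knockouts, and Foxj1, at 104, 68.4, 70.6 and 70.9. In 4 sterol enzymes, Mvk, Pmvk, Sc5d and Dhcr7, the wild type likewise stood alone, as the lowest library, with Hez among or above the knockouts. The part of these cell types in the differences of the sterol and fatty acid genes was not tested.

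**Figure D4:**
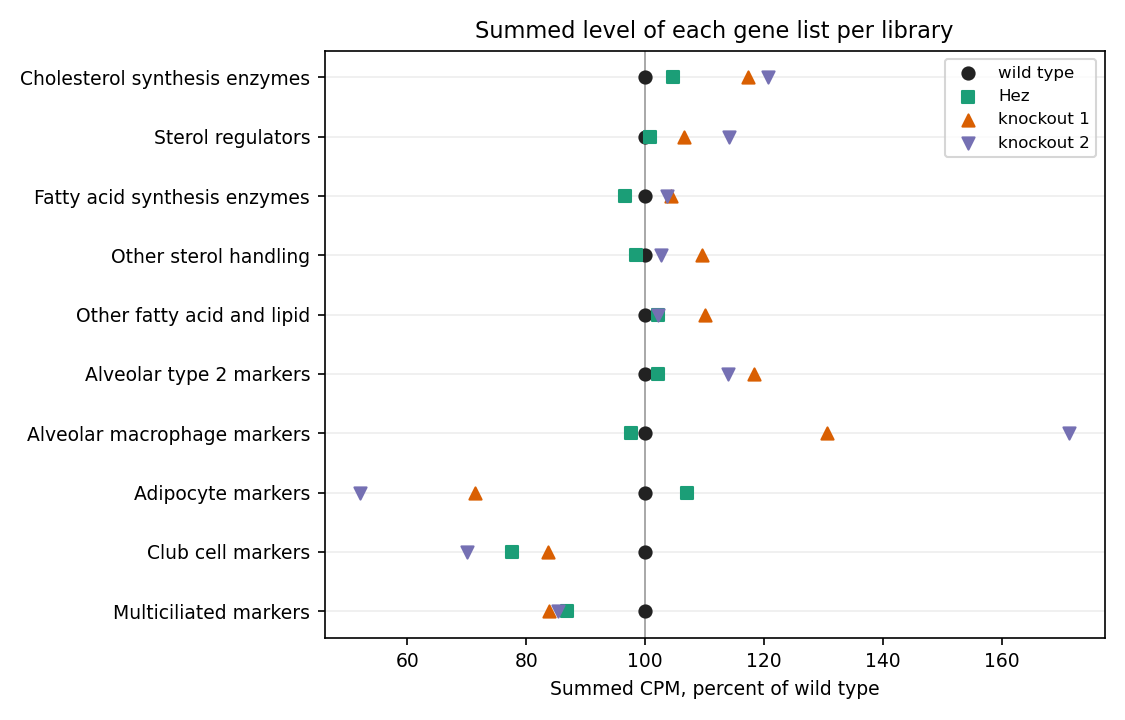
Summed CPM of each gene list in each library as a percent of the wild-type library (x axis), with lists on the y axis, 1 symbol per library and no error bars. The cholesterol synthesis enzymes (117% and 121% in the knockouts, 105% in Hez) and the alveolar type 2 markers (118% and 114%, 102% in Hez) lie to the right, and the adipocyte markers (71.5% and 52.1%, 107% in Hez) to the left.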

How the data were processed

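Lung RNA of 4 samples was sequenced from TruSeq libraries on an Illumina HiSeq instrument, per the labels' protocols. The deposited table holds raw read counts per gene, per the file headers. Beside them the authors deposited FPKM values; all 66024 of those above 0 equalled the count over gene length and library total (relative tolerance 1e-06). The submitters' processing notes name the build GRCm39; aligner, counter, annotation release and strand setting were not found in the labels or headers. Of the 32 genes, 9 overlap another gene of the table, 7 of them on the other strand.

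Counts were scaled by TMM, genes with too few counts were removed by filterByExpr with a minimum of 10, and all 15055 remaining genes were tested two-sided with the quasi-likelihood test of edgeR 4.0.16 in R 4.3.3. Benjamini-Hochberg adjustment ran over all of them, and an adjusted p below 0.05 was called. Wild type, Hez and knockout formed 3 groups (1 residual and 7.02 prior degrees of freedom). The fit with wild type and Hez as 1 group had 2 and 5.99. Each SE is the fold over the root of its F. Differences between single libraries use log2 CPM with a prior count of 2. The script was tested on simulated data. The genes and lists were chosen with earlier results of these data known. Named were all 32 genes, the 3 smallest p-values of each further lipid list, the first gene of each marker list and Dnah9. Cfd and Sec14l3 were named after their values were seen. Alternatives were other scalings and filters, DESeq2 1.42.0, limma 3.58.1 on counts and on log2 FPKM with pseudocounts of 0.5 and 0.1, and leaving out libraries. The number of libraries limits the precision.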

Additional observations from a re-analysis of the deposited data

How the results depend on the processing

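No setting of scaling, filter, tool or pseudocount changed the sign of a member's fold; 16 signs turned when a library was left out, and the cause was not tested. The 1 member call that appeared was Elovl1 by DESeq2 against the wild type and Hez together (1 member against 0 by edgeR). Genes called in all numbered 8 against the wild type by edgeR, 16 by DESeq2, 4 without a filter or with a mean of at least 10 CPM, and 1 on log2 FPKM; against Hez 1 by edgeR, 7 by DESeq2 and 0 on log2 FPKM; against both together 2 by edgeR, 34 by DESeq2, 1 by limma-voom, on log2 FPKM or with the stricter filter, and 107, 24, 1 and 8 without knockout 1, knockout 2, the wild type and Hez. Leaving out a knockout leaves no residual degrees of freedom against 1 reference, so those values have no test; in the 2-group fit a lone library is assumed to vary like the rest. Leaving out single libraries gave these log2 ranges. Against the wild type the sterol enzyme median ran from 0.22 to 0.27, the regulator median from 0.14 to 0.19 and the fatty acid median from 0.0074 to 0.058; Tm7sf2 ran from -0.33 to 0.12, Ebp from -0.0062 to 0.13 and Me1 from -0.13 to 0.26. Against Hez the regulator median ran from 0.087 to 0.18 and the fatty acid median from -0.081 to -0.053; Pmvk ran from -0.019 to 0.083, Tm7sf2 from -0.29 to 0.15, Scap from -0.0012 to 0.079, Fasn from -0.012 to 0.13, Dhcr7 from -0.014 to 0.15 and Me1 from -0.066 to 0.32. Against both together the sterol median ran from 0.15 to 0.28, the regulator median from 0.11 to 0.19 and the fatty acid median from -0.0696 to 0.0496; Tm7sf2 ran from -0.32 to 0.13, Me1 from -0.098 to 0.29, Mvk from -0.064 to 0.26, Sc5d from -0.057 to 0.18, Acaca from -0.096 to 0.019, Scd1 from -0.024 to 0.17 and Scd2 from -0.17 to 0.0799. No paired analysis was possible because the labels give no replicate numbers shared between groups.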
